A study of Mus musculus with 6 samples.

Results

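Myosin light chains are the small subunits that sit on the neck of the myosin heavy chain. The 10 genes described here are 6 light chain genes (Myl1, Myl2, Myl3, Myl4, Myl7 and Myl9) and 4 myosin light chain kinase genes (Mylk, Mylk2, Mylk3 and Mylk4). They were chosen by name as a gene family from the 20121 genes listed for these hearts. Hearts were taken from pups at P14 (postnatal day 14), whose strain background was mixed (ICR; C57BL/6), and their RNA was sequenced. The mutant hearts (Myh6-Cre; TRalphaAMI, 3 pups) carried a knock-in allele that, once Cre is present, makes a dominant negative thyroid hormone receptor alpha, and a Cre transgene driven by Myh6 in heart muscle cells. The control hearts (TRalphaAMI, 3 littermate pups) carried the same allele without Cre. No group carried Cre alone, so effects of Cre and of the receptor cannot be told apart. The comparison asks which transcripts differ in the heart once this receptor is expressed.

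Each myosin head binds an essential light chain, which stiffens the lever arm, and a regulatory light chain, whose phosphorylation tunes the speed and force of contraction. In the mouse heart, Myl3 and Myl2 are the essential and regulatory chains of the ventricle, Myl4 and Myl7 are their atrial counterparts, and Myl1 belongs to fast skeletal muscle. Myl9 is a regulatory chain of smooth muscle and other nonsarcomeric myosin. The kinases divide in a similar way, with Mylk in smooth muscle and many other cells, Mylk2 in skeletal muscle and Mylk3 in heart muscle, while Mylk4 is a less studied relative found in striated muscle.

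The mutant libraries held 45944049 to 48359735 counts and the control libraries 43314706 to 62095277. The 10 genes took 1.14% to 1.25% of the counts in mutant hearts and 1.24% to 1.37% in control hearts. Thra, the gene that carries the allele, had 125, 142 and 143 CPM in mutant hearts, against 66.8, 81.6 and 81.7 CPM in control hearts, and was called higher (log2 fold change 0.83, edgeR adjusted p = 1.01e-04). Counts per gene do not separate the altered from the normal Thra transcript. CPM is a gene's count scaled to a common library size, here after TMM scaling, which assumes that most genes do not differ. All 6 libraries bear the same run identifier in the labels. In whole tissue, fewer cells of a type and less RNA per cell cannot be told apart.

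The ventricular essential chain gene Myl3 was lower in mutant hearts and the regulatory chain gene of smooth muscle, Myl9, was higher, while the ventricular regulatory chain gene Myl2 was lower by a small margin that did not hold under another scaling. Of the 10 genes, 8 had enough counts to be tested, and Myl7 and Mylk2 did not. By edgeR's quasi-likelihood test at an adjusted p under 0.05, 2 of the 8 rose (Myl4 and Myl9), 5 fell (Myl1, Myl2, Myl3, Mylk3 and Mylk4) and Mylk did not pass. Of all 14877 genes tested, 37.5% were called, 18.1% as higher and 19.5% as lower. The CPM ranges of the groups did not overlap for 7 of the 8, against 49.8% of all genes tested. The median log2 fold change of the 8 was -0.25, beside -0.001 for all genes tested.

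The small changes among these depend on the scaling. With library totals alone in place of TMM, the median of all genes shifted by 0.28 on the log2 scale and 58.4% of genes were called, 50.3% as higher and 8.11% as lower. Of the 8 genes, 2 then rose (Myl4 and Myl9) and 3 fell (Myl1, Myl3 and Mylk4). The transcripts of the mitochondrial genome took 16.7% to 18.8% of the counts in mutant hearts and 22.4% to 24.8% in control hearts.

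**Figure D1:**
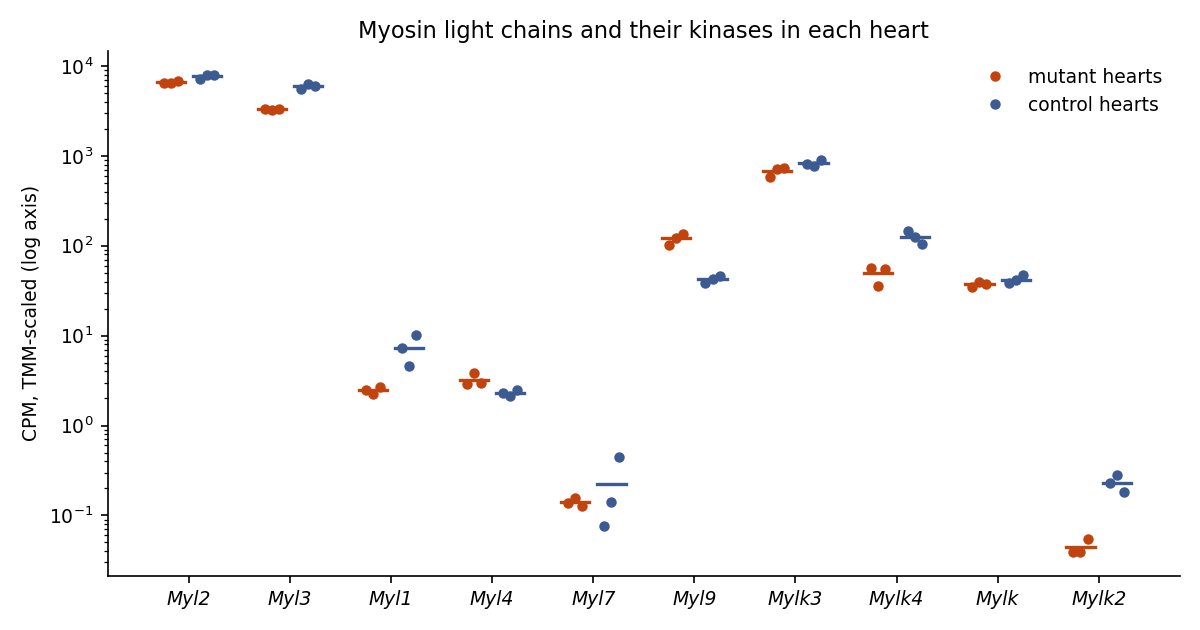
CPM of each of the 10 genes (log axis) in each heart, with 1 point per heart, lines at the means, mutant hearts on the left and control hearts on the right of each pair. Myl9 lies between 102 and 136 CPM in mutant hearts and between 38.6 and 46.3 CPM in control hearts, and Myl7 and Mylk2 lie below 0.5 CPM in all 6 hearts.

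Myl3 (ENSMUSG00000059741, mm10 chromosome 9, 110741861 to 110769798, plus strand) encodes the essential chain shared by ventricular and slow skeletal muscle. It had 3300.0, 3255 and 3302 CPM in mutant hearts, against 5578, 6240.4 and 5998 CPM in control hearts. Every mutant heart was below every control heart, and the mutant hearts differed from each other far less than the control hearts did. Myl3 averaged 3286 ± 26.5 CPM in mutant hearts and 5939 ± 335 CPM in control hearts (SD, n = 3 each). It was 1.81-fold lower in mutant hearts, and the log2 fold change was -0.85 ± 0.07 (SE, approximate; edgeR adjusted p = 1.28e-05). With library totals alone the log2 fold change was -0.57. Exons of Pth1r on the opposite strand cover 4.65% of the exon bases of Myl3, and those of Ccdc63 cover 3.08% of Myl2, and the library kit does not keep the strand.

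Myl2 (ENSMUSG00000013936, chromosome 5, 122100951 to 122113472, plus strand) encodes the ventricular regulatory chain, which Mylk3 phosphorylates. It had 6438, 6514 and 6832 CPM in mutant hearts, against 7086, 7842 and 8017 CPM in control hearts. The groups did not overlap, but the gap between the nearest hearts was smaller than the range within the control hearts. The log2 fold change was -0.21 ± 0.07 (SE; edgeR adjusted p = 0.0420). The sign turned with library totals alone (0.07, edgeR adjusted p = 0.433), and the call was lost without 5 of the 6 hearts in turn. The RPKM values, which hold no correction for library composition, averaged 3710 ± 184 in mutant hearts and 3534 ± 230 in control hearts (SD, n = 3 each).

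The balance between both ventricular chains does not depend on how libraries are scaled, because it is taken within each heart. RPKM divides counts by gene length and library total, so that different genes can be compared. Summed RPKM of the regulatory chains Myl2 and Myl7 over that of the essential chains Myl1, Myl3 and Myl4 was 2.04, 2.10 and 2.17 in mutant hearts, against 1.33, 1.32 and 1.40 in control hearts. All mutant hearts were above all control hearts. The difference in log2 ratio was 0.64, with an SD of 0.04 in mutant hearts and 0.05 in control hearts (n = 3 each). An exact two-sided permutation test gave p = 0.1, the smallest that 3 hearts against 3 allow, and 0.175 after Benjamini-Hochberg adjustment over 7 shares and ratios. This ratio was chosen after the values of the genes were seen.

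The pools were also set against the heavy chains, since each heavy chain binds a chain of either kind. Summed RPKM of Myh6, the heavy chain that predominates in the adult mouse heart, and Myh7, that of the fetal ventricle, was 2751, 2974 and 3196 in mutant hearts, against 5012, 5565 and 5392 in control hearts. The regulatory chains over this sum gave 1.29, 1.23 and 1.22 in mutant hearts, against 0.653, 0.652 and 0.686 in control hearts. The difference in log2 ratio was 0.91 (exact two-sided permutation p = 0.1, adjusted 0.175), and 0.57 with counts not divided by length. The essential chains over the same sum gave 0.631, 0.589 and 0.565 in mutant hearts, against 0.491, 0.496 and 0.491 in control hearts. That difference was 0.27 in log2 ratio (exact two-sided permutation p = 0.1, adjusted 0.175). It turned to -0.07 with counts not divided by length, so no direction is given for it. The authors' RPKM divides Myh7 by 8635 bases and Myh6 by 6383.

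**Figure D2:**
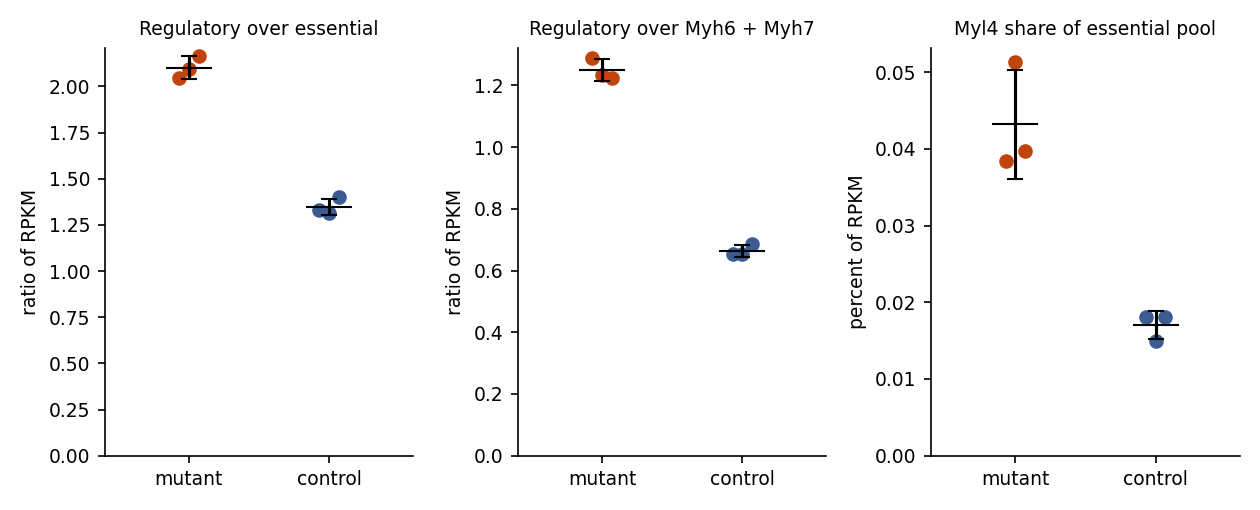
Ratios and shares of summed RPKM within each heart: regulatory chains (Myl2, Myl7) over essential chains (Myl1, Myl3, Myl4), regulatory chains over Myh6 + Myh7, and the percent of the essential chains that is Myl4. Points are hearts and bars are mean ± SD (n = 3), with mutant hearts left of control hearts, and the groups do not overlap in any of the 3 panels.

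The atrial chains were close to absent from these libraries. Myl4 (ENSMUSG00000061086, chromosome 11, 104550663 to 104595753, plus strand), the essential chain of the atrium and of the embryonic ventricle, had 2.88, 3.80 and 2.98 CPM in mutant hearts, against 2.30, 2.11 and 2.46 CPM in control hearts. The groups did not overlap. The log2 fold change was 0.49 ± 0.15 (SE, 1.41-fold; edgeR adjusted p = 0.0257). Leaving out mutant replicate 2 ended the call (edgeR adjusted p = 0.112), as did leaving out control replicate 1 (0.0584) or control replicate 2 (0.0996).

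Beside Myl3, this amount of Myl4 is small. Myl4 made up 0.0432% ± 0.00711 of essential chain RPKM in mutant hearts and 0.0170% ± 0.00183 in control hearts (SD, n = 3 each; exact two-sided permutation p = 0.1, adjusted 0.175). The difference of 0.0262 percentage points was 0.0593 with counts not divided by length. Myl3 made up 99.9% in the mean of either group. The share of Myl3 had overlapping groups (exact two-sided permutation p = 0.5, adjusted 0.583).

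Myl7 (ENSMUSG00000020469, chromosome 11, 5896637 to 5898782, minus strand), the atrial regulatory chain, had 7, 8 and 7 counts in mutant hearts, against 3, 8 and 22 counts in control hearts. Control replicate 3 alone held 22 of the 33 control counts. Summed over hearts and corrected for effective library size, the count ratio was 0.619 mutant over control, with an exact 95% interval of 0.344 to 1.09 that covers counting error only. Myl7 was at 0.00710% of striated regulatory chain RPKM in mutant hearts and 0.00933% in control hearts, with overlapping groups (exact two-sided permutation p = 1.0).

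The labels name the tissue as heart, and the atrial markers Sln and Mybphl were also near 0. Other atrial markers were not. Kcnj5 averaged 223 CPM in mutant hearts and 157 CPM in control hearts, and Kcna5 39.8 and 45.7 CPM. Sln, the atrial inhibitor of the calcium pump, reached at most 0.0395 CPM in mutant hearts and 0.163 CPM in control hearts, and had no count in mutant replicate 2 and in control replicates 1 and 2. Mybphl, an atrial relative of myosin binding protein C, had 0.138, 0.0394 and 0.0184 CPM in mutant hearts, against 0.255, 0.142 and 0.427 CPM in control hearts. Of 16 atrial markers, 14 were tested, 7 rose, among them Nppa, Dkk3 and Cacna1g, and 3 fell, among them Kcnj3, a channel subunit gene at 3.99 CPM in mutant hearts and 32.7 CPM in control hearts. With library totals alone, 9 rose and 1 fell. Over all genes tested, 18.1% were called higher and 19.5% lower, and 50.3% and 8.11% with library totals alone. Among the 7 that rose was Bmp10, a growth factor gene of atrial and trabecular muscle (edgeR adjusted p = 0.00122). Bmp10 had 20, 13 and 40 counts in mutant hearts, against 0, 2 and 0 counts in control hearts. It thus passed the filter on low counts only through the mutant hearts. The summed level of the list was 718 to 796 CPM in mutant hearts and 378 to 414 CPM in control hearts, of which Nppa, the atrial natriuretic peptide gene, which the fetal ventricle also uses, was 295 to 354 CPM in mutant hearts and 48.3 to 59.0 CPM in control hearts. Exons of Gm13054 on the opposite strand cover 61.5% of the exon bases of Nppa, and those of Gm26794 cover 31.1% of Kcnj3. Whether the amount of atrial tissue plays a part in the change of Myl4 was not tested.

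Myl1 (ENSMUSG00000061816, chromosome 1, 66924295 to 66945404, minus strand), the essential chain of fast skeletal muscle, had 2.47, 2.26 and 2.69 CPM in mutant hearts, against 7.37, 4.56 and 10.2 CPM in control hearts. The mutant hearts were alike, while the control hearts spread widely and stayed above them all. The log2 fold change was -1.57 ± 0.26 (SE, 2.97-fold lower; edgeR adjusted p = 0.00111). It ranged from -1.83 without control replicate 2 to -1.26 without control replicate 3. As a share of essential chain RPKM, Myl1 was 0.0740% ± 0.00586 in mutant hearts and 0.123% ± 0.0478 in control hearts (SD, n = 3 each), with overlapping groups (exact two-sided permutation p = 0.3, adjusted 0.42). The difference of -0.0489 percentage points was -0.0744 without control replicate 2 and -0.0270 without control replicate 3.

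Markers of fast skeletal muscle were low in every heart. Of 13 on the list, 11 were in the tables and 6 were tested. Of these 6, 1 rose (Mybpc2, fast myosin binding protein C) and 1 fell (Tnni2, fast troponin I). Over all genes tested, 18.1% were called higher and 19.5% lower. Tnni2 had a log2 fold change of -1.70 (edgeR adjusted p = 1.03e-04) and averaged 0.629 CPM in mutant hearts and 2.04 CPM in control hearts. The summed level of the list was 29.9 to 40.4 CPM in mutant hearts and 14.7 to 17.6 CPM in control hearts, of which Mybpc2 averaged 31.5 CPM in mutant hearts and 11.4 CPM in control hearts. Tnnc2, fast troponin C, was at most 0.0395 CPM in mutant hearts and 0.0178 CPM in control hearts. Exons of Ube2c on the opposite strand cover 74.0% of its exon bases, and the kit does not keep the strand, so this level is uncertain. Whether skeletal muscle cells play a part in the change of Myl1 was not tested.

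Myl9 (ENSMUSG00000067818, chromosome 2, 156775420 to 156781658, plus strand) changed with the smallest adjusted p among the 10 genes. It had 102, 123 and 136 CPM in mutant hearts, against 38.6, 42.5 and 46.3 CPM in control hearts. The lowest mutant heart was far above the highest control heart. Myl9 averaged 121 ± 17.1 CPM in mutant hearts and 42.5 ± 3.88 CPM in control hearts (SD, n = 3 each). It was 2.84-fold higher, and the log2 fold change was 1.504 ± 0.11 (SE; edgeR adjusted p = 7.66e-06). Leaving out each heart in turn gave 1.40 to 1.61, and library totals alone gave 1.79.

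Most other smooth muscle genes did not pass the test. Of 11 smooth muscle markers, 3 rose (Cnn1, Itga8 and Smtn), 1 fell (Synpo2, log2 fold change -1.52) and 7 did not pass, and their summed level was 709 to 818 CPM in mutant hearts and 684 to 778 CPM in control hearts. The call of Smtn (edgeR adjusted p = 0.0370) was lost without mutant replicates 2 (0.0791) or 3 (0.141) or control replicates 1 (0.117) or 2 (0.0728), and that of Itga8 (0.0123) without mutant replicate 2 (0.0512) or control replicate 2 (0.0551). Myh11 encodes a heavy chain of smooth muscle. It had 25.2, 36.8 and 34.0 CPM in mutant hearts, against 29.2, 37.2 and 49.8 CPM in control hearts (edgeR adjusted p = 0.280). Acta2, another marker on the list, had 238, 229 and 290 CPM in mutant hearts, against 173, 228 and 205 CPM in control hearts. Its groups did not overlap, though only just, and its log2 fold change was 0.32 (edgeR adjusted p = 0.0533). Cnn1, the smooth muscle calponin, rose 3.50-fold, to 2.81 CPM in mutant hearts, against 0.790 CPM in control hearts. Tagln, which did not pass, averaged 1.30 CPM in mutant hearts and 1.53 CPM in control hearts. Exons of Gm48529 on the opposite strand cover 62.4% of its exon bases, so this level is uncertain. Of 8 pericyte markers, 1 rose (Cspg4, log2 fold change 1.13) and 5 fell, among them Vtn, Higd1b and Kcnj8, with summed levels of 1980 to 2132 CPM in mutant hearts and 2262 to 2544 CPM in control hearts. With library totals alone, 5 smooth muscle markers rose and 1 fell, and 1 pericyte marker rose and 1 fell. Over all genes tested, 18.1% were called higher and 19.5% lower, and 50.3% and 8.11% with library totals alone. Which cells hold the added Myl9 RNA was not tested.

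The kinase genes were lower or did not pass the test. Mylk3 (ENSMUSG00000031698, chromosome 8, 85324303 to 85386345, minus strand), the cardiac kinase of Myl2, had 586, 719 and 741 CPM in mutant hearts, against 819, 779 and 910 CPM in control hearts. The groups did not overlap, with mutant replicate 1 the lowest. The log2 fold change was -0.29 ± 0.10 (SE; edgeR adjusted p = 0.0411). It was -0.01 with library totals alone (edgeR adjusted p = 0.961), and the call was also lost without mutant replicates 1 or 2 or control replicates 1 or 3. RPKM averaged 175 ± 24.4 in mutant hearts and 176 ± 13.9 in control hearts (SD, n = 3 each).

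Mylk4 (ENSMUSG00000044951, chromosome 13, 32700834 to 32783954, minus strand) had 56.5, 35.9 and 55.1 CPM in mutant hearts, against 145, 127 and 105 CPM in control hearts. The groups were well apart, and mutant replicate 2 was the lowest. Mylk4 averaged 49.1 ± 11.5 CPM in mutant hearts and 125 ± 20.1 CPM in control hearts (SD, n = 3 each). It was 2.55-fold lower, and the log2 fold change was -1.35 ± 0.17 (SE; edgeR adjusted p = 2.41e-04). The values without each heart in turn ran from -1.46 to -1.17, and library totals alone gave -1.06.

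Mylk (ENSMUSG00000022836, chromosome 16, 34745210 to 35002420, plus strand), the kinase of smooth muscle and many other cells, had 34.4, 39.8 and 37.5 CPM in mutant hearts, against 38.0, 41.1 and 46.9 CPM in control hearts. The groups overlapped. The log2 fold change was -0.17 ± 0.09 (SE; edgeR adjusted p = 0.157), and its sign turned with library totals alone (0.11). Antisense genes cover 4.87% and 1.99% of the exon bases of Mylk.

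Mylk2 (ENSMUSG00000027470, chromosome 2, 152911352 to 152923068, plus strand), the skeletal muscle kinase, had 2, 2 and 3 counts in mutant hearts, against 9, 16 and 9 counts in control hearts, too few for the main test. Summed over hearts and corrected for effective library size, the count ratio was 0.191 mutant over control, with an exact 95% interval of 0.0715 to 0.438 that covers counting error only. Without the filter on low counts, edgeR called Mylk2 lower (adjusted p = 0.00350), where 14.0% of all genes were called lower, and DESeq2 did so as well (adjusted p = 0.0178), where 16.5% were.

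**Figure D3:**
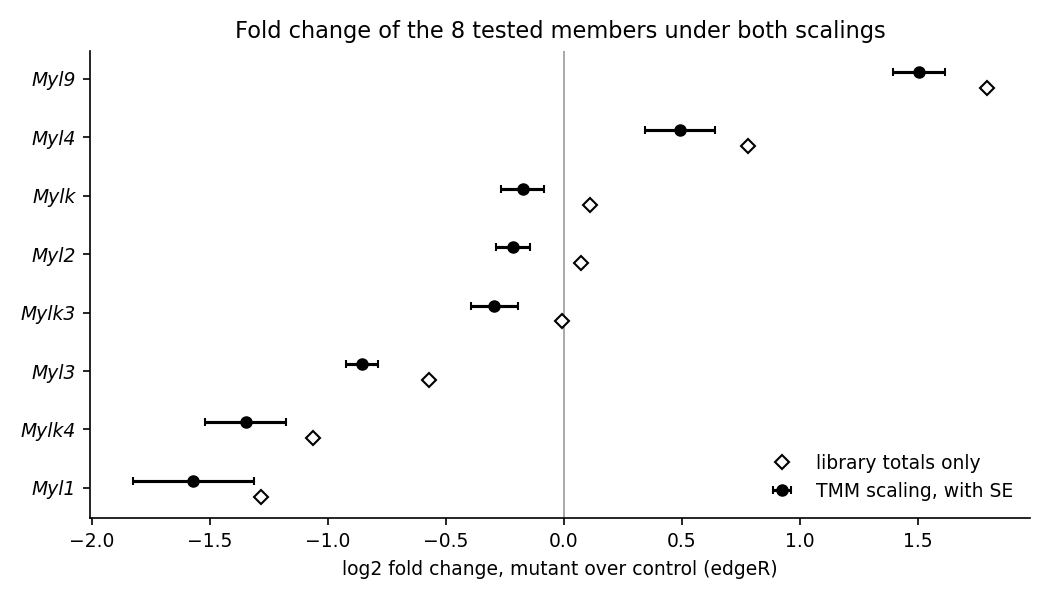
Log2 fold change, mutant over control, of the 8 tested genes from edgeR, with TMM scaling (filled circles, bars SE) and with library totals only (open diamonds). Library totals move every gene up by about the same amount, so Myl2 and Mylk change sign and Mylk3 comes to -0.01, while Myl9, Myl4, Myl3, Mylk4 and Myl1 keep their direction.

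Levels per length spanned a wide range. In the mutant hearts the mean RPKM ran in the order Myl2 (3710), Myl3 (1763), Mylk3 (175), Myl9 (114), Mylk4 (8.80), Mylk (4.02), Myl1 (1.31), Myl4 (0.762), Myl7 (0.263) and Mylk2 (0.0166). The order was the same in the control hearts, where Myl2 had 3534, Myl3 2618, Mylk3 176, Myl9 32.9, Mylk4 18.4, Mylk 3.72, Myl1 3.20, Myl4 0.445, Myl7 0.339 and Mylk2 0.0709 RPKM. No neighbours in the order overlapped in the mutant hearts. In the control hearts Mylk overlapped Myl1 and Myl4 overlapped Myl7. The RPKM of Myl4 rests on a length of 4663 bases and that of Myl3 on 2056.

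Upstream sequences are shown for Myl3 and Mylk4, which fell, and Myl9, which rose, the 3 most abundant of the 4 genes whose calls held under every alternative tried. RefSeq windows of 250 bases before the start (build GRCm38.p6, the assembly that mm10 names) were found for 9 of the 10 genes, and bases inside annotated exons are left out here. The sequences run along the gene's strand. Capitals mark a CArG box, the site of serum response factor, in Myl3 and Myl9, and in Mylk4 first an AGGTCA half-site on the opposite strand, the core of thyroid hormone response elements, and then a MEF2 site. The Myl3 sequence lies at chr9:110763428-110763645 on the plus strand, the Myl9 sequence at chr2:156775214-156775419 on the plus strand, and the Mylk4 sequence at chr13:32783965-32784214 on the minus strand.
Myl3: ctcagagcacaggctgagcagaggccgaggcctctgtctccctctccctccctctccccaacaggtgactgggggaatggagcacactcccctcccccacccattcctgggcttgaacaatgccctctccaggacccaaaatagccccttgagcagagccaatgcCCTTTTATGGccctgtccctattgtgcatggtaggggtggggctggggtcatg
Myl9: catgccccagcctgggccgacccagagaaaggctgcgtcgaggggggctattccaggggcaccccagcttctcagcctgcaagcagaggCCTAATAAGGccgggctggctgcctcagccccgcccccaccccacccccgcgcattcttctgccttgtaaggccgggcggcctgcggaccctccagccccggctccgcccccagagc
Mylk4: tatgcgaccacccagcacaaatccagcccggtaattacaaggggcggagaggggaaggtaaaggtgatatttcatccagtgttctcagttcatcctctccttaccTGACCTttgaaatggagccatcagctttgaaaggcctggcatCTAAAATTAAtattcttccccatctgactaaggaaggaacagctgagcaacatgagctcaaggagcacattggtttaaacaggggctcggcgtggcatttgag

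Both strands of every window were searched, and the motifs do not overlap each other in these sequences. The 9 genes had 11 windows, and a gene counted if any of its windows held the motif. The percentages are over single windows, so the rates are not strictly alike. A CArG box was in the windows of 3 of the 9 genes (Myl3, Myl7 and Myl9), against 1.47% of all 32851 windows. An AGGTCA half-site was in those of 2 (Myl2 and Mylk4), against 14.0%, and a MEF2 site in that of 1 (Mylk4), against 2.92%. The E-box CANNTG was in 6, against 66.2%, and the M-CAT element CATTCC in 5, against 12.6%. The TATAAA box was in 2 (Myl1 and Myl2), against 12.4%. Genes with a CArG box included 1 that fell, 1 that rose and 1 that was too low to test. The RefSeq starts of Myl2 lie 8227 and 7762 bases before the start annotated in GENCODE, so those windows do not adjoin it. The RefSeq start of Myl3 lies 21817 bases after the first GENCODE start, and the sequence shown ends where a GENCODE exon begins. The start of Mylk lies 39740 bases after its first GENCODE start, and those of Mylk3 lie 5304 and 21021 bases after. That of Myl1 lies 348 bases after, so its window lies inside the annotated gene.

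Genes whose values over the 6 libraries were most like those of the clearest movers were found by the Euclidean distance of centred log2(CPM + 0.1) among 13736 other protein-coding genes. Nearest to Myl9 were Mtss1 (distance 0.122), which encodes an actin-binding protein, Zfp286 (0.148) and the transcription factor gene Klf11 (0.159). Nearest to Myl3 were Ogdh (0.0490), an enzyme subunit of the citric acid cycle, Tango2 (0.0630) and Myadml2 (0.0723). A choice by distance over both groups brings their log2 fold changes close to those of Myl9 and Myl3. The values were 1.44, 1.55 and 1.39 for the genes near Myl9 and -0.84, -0.83 and -0.89 for those near Myl3.

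Among light chain genes outside the 10, most did not pass the test. Of 6 on the list, 5 were in the tables and tested, and 1 fell, beside 19.5% called lower over all genes tested. Myl12a, a nonmuscle regulatory chain, had a log2 fold change of -0.37 ± 0.07 (SE; edgeR adjusted p = 0.00218), and -0.09 with library totals alone, where it did not pass (edgeR adjusted p = 0.309). Its copy Myl12b, with a nearly identical coding sequence, had -0.06 (edgeR adjusted p = 0.476), and reads could be divided between them. Exons of Myom1 on the opposite strand cover 6.16% of the exon bases of Myl12a. The median of the 5 was -0.02.

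The myosin phosphatase removes the phosphate from regulatory chains. Of 9 tested genes for its subunits, related catalytic subunits and inhibitors, 3 were higher and 1 was lower, with a median log2 fold change of -0.05. Of all genes tested, 18.1% were called higher and 19.5% lower. Ppp1r14b, which encodes an inhibitor of protein phosphatase 1, rose 1.88-fold, to 10.5 ± 0.265 CPM in mutant hearts, against 5.58 ± 0.705 CPM in control hearts (SD, n = 3 each; edgeR adjusted p = 1.34e-04). The targeting subunit genes moved in opposite directions with TMM scaling, but not with library totals alone. Ppp1r12a, the widely used form, rose to 178 ± 19.0 CPM in mutant hearts, against 126 ± 7.37 CPM in control hearts, and Ppp1r12b, the form of striated muscle, fell to 327 ± 15.5 CPM in mutant hearts, against 397 ± 9.90 CPM in control hearts (SD, n = 3 each). The edgeR adjusted p was 0.00140 for Ppp1r12a and 0.00611 for Ppp1r12b, whose log2 fold change of -0.28 turned to 0.01 with library totals alone. Of the catalytic subunit genes, Ppp1cc had a log2 fold change of 0.36 (edgeR adjusted p = 0.0116), while Ppp1cb, the subunit of the myosin phosphatase itself, had -0.07 (edgeR adjusted p = 0.611).

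Of other kinase genes, Dapk1, a death-associated protein kinase, rose by 0.46 ± 0.09 on the log2 scale (SE; edgeR adjusted p = 0.00250). Camk2d, the main calcium-dependent protein kinase of its family in the heart, rose by 0.27 ± 0.09 (SE; edgeR adjusted p = 0.0465), a call lost without 5 of the 6 hearts in turn.

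**Figure D4:**
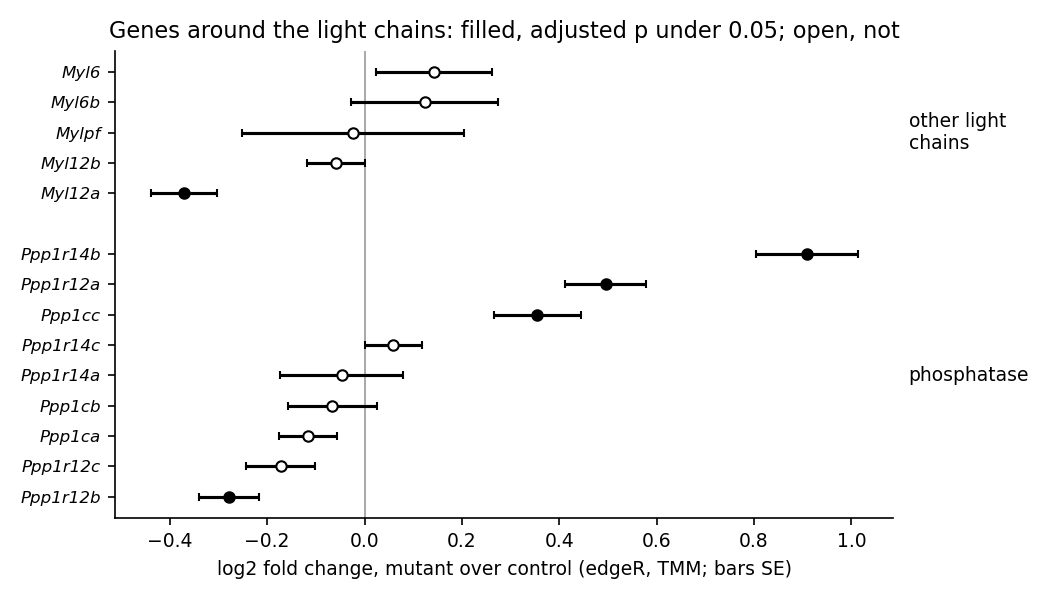
Log2 fold change, mutant over control, with SE, of tested genes on the lists of other light chains and the myosin phosphatase, from edgeR with TMM scaling. Filled points have an adjusted p under 0.05: Ppp1r14b lies farthest to the right at 0.91, and Myl12a, the only filled point among the other light chains, lies at -0.37.

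Of 14 partner genes of the thick filament, 12 were tested, with a median of 0.07. Among the 12, 3 rose (Myh7, Myh7b and Mybpc2), 1 fell (Myh6) and 8 did not pass. Over all genes tested, 18.1% were called higher and 19.5% lower. Myh6 and Myh7 had log2 fold changes of -3.28 and 5.83 and Myh7b, a slow myosin heavy chain, 0.83 (edgeR adjusted p = 0.00339 for Myh7b). Mybpc3, the cardiac myosin binding protein C, had 0.09 (edgeR adjusted p = 0.361), and Ttn, the titin gene, had -0.08 (edgeR adjusted p = 0.710).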

How the data were processed

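Hearts of 6 pups were profiled, 3 per group, grouped by the sample titles. Each deposited count table gives whole numbers for Ensembl genes. The submitters' processing notes name cutadapt 1.9, STAR 2.5.2b, featureCounts 1.5.1 and mm10, with no role or order. Annotation, strand setting and treatment of multiply matched reads were not given in the sources used here. RPKM tables, also deposited by the authors, hold these counts over a gene length and the library total. The RNA was extracted with Trizol and made into libraries with a TruSeq RNA kit, version 2, per the labels' protocols. Listed genes have at least 2 counts in all. Symbols, coordinates and exon overlaps came from GENCODE M21, which named 20081 of 20121 identifiers.

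The main test was edgeR 4.0.16 under R 4.3.3 (filterByExpr, 14877 genes kept, TMM, quasi-likelihood F test, group as the only term), with Benjamini-Hochberg adjustment over all genes tested. The SE is approximated as the log2 fold change over the square root of F. Shares and ratios within a heart used RPKM and exact permutation tests. DESeq2 1.42.0 and limma 3.58.1 on log2(RPKM + 1) and log2(RPKM + 0.1) were alternatives, as were other scalings, no filter, a replicate block and leaving out each heart. The edgeR, DESeq2 and limma steps were tested on simulated data with known changes, limma on CPM in place of RPKM. Those changes touched a small part of the genes, up and down alike, so the simulation cannot test the choice of scaling. Intervals cover counting error only. Each gene list was described by counts and a median. From each list without members, up to 4 called genes with the smallest adjusted p were named, with the 3 nearest genes to Myl9 and Myl3. Others (Acta2, Bmp10, Kcna5, Kcnj5, Myh11, Mybpc3, Mybphl, Myl12b, Ppp1cb, Sln, Tagln, Tnnc2 and Ttn) were chosen with their values already seen. Some results of 1 list of regulators and other kinases are not reported here. The members and lists were chosen with earlier results of these data known.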

Additional observations from a re-analysis of the deposited data

How the results depend on the processing

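Among the 8 tested genes, Myl1, Myl3, Myl9 and Mylk4 kept their direction and their call under all 15 alternatives. Myl2 turned to 0.072 on the log2 scale with library totals and 0.071 on each RPKM scale (limma adjusted p of 0.488 to 0.712), and without a filter its edgeR adjusted p was 0.0729. Mylk turned to 0.11 with library totals, 0.089 on log2(RPKM + 1), with and without a filter, and 0.11 on log2(RPKM + 0.1). Ppp1r12b turned to 0.008 and 0.005, and the pericyte gene Kcnj8 to 0.018 and 0.017, with library totals and on the RPKM scales. The call of Mylk3 was lost without the mitochondrial genome (edgeR adjusted p = 0.0520). The cause of these changes was not tested.

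Counts of calls over all genes were 7479 higher and 1207 lower with library totals, 7094 and 1160 on log2(RPKM + 1), 7091 and 1155 on log2(RPKM + 0.1), and 6916 and 1170 on log2(RPKM + 1) without a filter, against 2688 and 2898. The share of calls that were higher was 86.1% with library totals and 48.1% with TMM. Of the 10 genes, 3 were lower with library totals and on both filtered RPKM scales. Of the related genes, 28, 28, 28 and 27 were higher and 1 was lower under these 4 settings in turn, against 8 higher and 5 lower. Leaving out each heart gave 1 to 2 of the 10 genes higher and 3 to 4 lower, 7 to 8 related genes higher and 4 to 6 lower, and 2039 to 2661 genes higher and 2234 to 2856 lower in all.

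With counts in place of RPKM, the mutant minus control difference turned to -0.00969 percentage points for the share of Myl3 and to -0.0738 for the log2 ratio of essential to heavy chains, and moved to 0.0593 percentage points for the share of Myl4 and 0.57 for the log2 ratio of regulatory to heavy chains. Leaving out each heart, the share of Myl7 differed by -0.00511 to 0.00233 percentage points, with the highest value without control replicate 3. The ratio of regulatory to essential chains ran from 0.62 to 0.67.

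The replicate numbers are not stated to mark a litter or day, and deviations of same-numbered hearts correlated at 0.155, -0.05 and 0.096, so the samples are not treated as paired. With the replicate block, 3090 genes were higher and 3229 lower, 2 and 4 of the 10 genes, and the call of Myl2 was lost (edgeR adjusted p = 0.0616). The within-heart ratios with the block had an exact p of at least 0.25, the smallest that 3 pairs allow.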

Other observations

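Marker lists of other heart cells were measured in the same libraries. Over all genes tested, 18.1% were called higher and 19.5% lower with TMM scaling. These shares were 50.3% and 8.11% with library totals alone. Of 10 heart muscle markers, 5 fell and 5 did not pass, with Tcap, a Z-disc gene, at a log2 fold change of -1.54, Ryr2, Tnnc1 and Pln among those that fell, and a summed level of 31868 to 32918 CPM in mutant hearts and 35292 to 39112 CPM in control hearts. With library totals alone, 3 heart muscle markers rose and 2 fell, and Tnnc1 (log2 fold change -0.08, edgeR adjusted p = 0.386) and Pln (-0.07, edgeR adjusted p = 0.478) did not pass. Of 8 endothelial markers, 6 fell, among them Tek, Emcn, Tie1 and Flt1, the last at a log2 fold change of -0.44, with a summed level of 1433 to 1562 CPM in mutant hearts and 1701 to 1854 CPM in control hearts, and none passed with library totals alone. Of 8 fibroblast markers, 3 rose (Tcf21 at 0.54, Pdgfra and Dcn), with a summed level of 3018 to 3379 CPM in mutant hearts and 2635 to 2977 CPM in control hearts and a median of 0.22, and all 8 rose with library totals alone. Whether these shifts play a part in the values of the light chain genes was not tested.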
